A study of Mus musculus with 54 samples.

Results

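The CXC chemokines are described here by 10 genes, Cxcl1, Cxcl2, Cxcl3, Cxcl5, Cxcl9, Cxcl10, Cxcl11, Cxcl16, Pf4 and Ppbp, chosen by their symbols from the 39179 gene IDs of the count files. All 10 symbols were found. The cells were thioglycolate-elicited peritoneal macrophages of C57BL/6 mice aged 8 to 20 weeks, taken 4 days after the injection. In the polarization experiment, cells of 3 mice were left unpolarized (M0), given 100 ng/ml LPS with 50 ng/ml IFNγ (M1-like) or given 10 ng/ml IL-4 (M2-like) for 24 h. In the reprogramming experiment, 12 conditions with 3 replicates each held macrophages of all 3 polarization states without transfection or with mock transfection, besides M2-like macrophages transfected with siRNA pools. The mock cells received the transfection reagent alone. The pools were a negative pool, pools against E2f1, Myc, Pparg or Stat6, and a combined pool against all of these, and transfected cells were harvested after 48 h. IL-4 was absent from the M2-like cells after transfection, and the study's methods put sequencing at 24 h of polarization for cells without transfection and at 48 h of transfection for the reprogramming study, without saying which applies to the untransfected libraries of the latter.

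Chemokines are small secreted proteins that direct the migration of leukocytes, and the CXC family has a single residue between its first cysteines. Cxcl1, Cxcl2, Cxcl3 and Cxcl5 act on the receptor Cxcr2 and draw neutrophils, and in macrophages they are classical products of Toll-like receptor signaling through NF-kB. Cxcl9, Cxcl10 and Cxcl11 act on Cxcr3 and draw activated T cells and natural killer cells, and interferons induce them. Cxcl16 is made as a membrane protein that is cleaved from the cell surface, binds Cxcr6 and takes up oxidized lipoprotein. Pf4 (platelet factor 4) and Ppbp (pro-platelet basic protein) are best known from platelet granules, and Pf4 is also transcribed in macrophages.

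A mouse and condition of the polarization experiment held between 39577911 and 59443987 counted reads over its technical runs, and a library of the reprogramming experiment held between 13421854 and 19704195. The 6 macrophage markers of a fixed list were detected in all 15 conditions and summed to between 6162 and 18252 CPM (counts scaled to the size of each library). In M2-like cells, the targeted transcripts stood at 18.9% ± 3.03 (E2f1), 35.4% ± 7.45 (Myc), 24.1% ± 2.82 (Pparg) and 27.9% ± 5.91 (Stat6) of the mock mean with their own pool (SD, n = 3). The combined pool left 45.2% ± 1.5 of E2f1, 36.8% ± 2.97 of Myc, 31.0% ± 2.46 of Pparg and 55.1% ± 4.92 of Stat6. With the negative pool the means lay between 74.8% (E2f1) and 109.6% (Pparg). The 2 experiments differ in read length and library preparation and were normalized separately, so levels set across them are given side by side and were not tested. The labels number the replicates of the reprogramming experiment without saying that they are separate animals, and p-values then measure the spread between these samples only. In bulk RNA, fewer cells of a type and less RNA per cell cannot be told apart.

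Of the 10 genes, 9 lie in a pair of clusters on chromosome 5 (GRCm38, GENCODE M21). Cxcl5, Ppbp, Pf4, Cxcl3, Cxcl1 and Cxcl2 lie in this order on the plus strand within 146.6 kb, from 90759360 to 90905938. Cxcl9, Cxcl10 and Cxcl11 lie on the minus strand within 44.1 kb, from 92321347 to 92365485. Cxcl16 lies on chromosome 11 from 70453983 to 70459984 on the minus strand. Cxcl11 is annotated as a polymorphic pseudogene, since the C57BL/6 allele is disrupted, and its values are transcript levels only.

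The start sites of 7 of the 10 genes had an upstream sequence in RefSeq (GRCm38.p6). The 250 bases before the start are shown for Cxcl1, Cxcl2 and Cxcl3, which share a motif, for Cxcl10, which holds several, and for Cxcl9 and Pf4, which hold none of the 3 motifs searched. Each runs 5′ to 3′ on the strand of its gene, and capitals mark motif matches. Regions are chr5:90890995-90891244 (plus strand) for Cxcl1, chr5:90903649-90903898 (plus) for Cxcl2, chr5:90785851-90786100 (plus) for Cxcl3, chr5:92348890-92349139 (minus) for Cxcl10, chr5:92328080-92328329 (minus) for Cxcl9 and chr5:90772185-90772434 (plus) for Pf4.
Cxcl1: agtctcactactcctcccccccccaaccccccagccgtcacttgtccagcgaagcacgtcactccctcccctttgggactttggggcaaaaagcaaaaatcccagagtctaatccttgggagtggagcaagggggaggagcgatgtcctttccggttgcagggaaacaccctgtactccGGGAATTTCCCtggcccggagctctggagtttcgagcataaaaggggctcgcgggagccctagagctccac
Cxcl2: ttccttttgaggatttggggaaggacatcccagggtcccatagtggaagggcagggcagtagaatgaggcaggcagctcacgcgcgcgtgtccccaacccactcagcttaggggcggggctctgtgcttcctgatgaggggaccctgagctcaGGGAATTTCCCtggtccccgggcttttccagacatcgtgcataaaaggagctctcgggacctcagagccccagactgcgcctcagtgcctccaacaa
Cxcl3: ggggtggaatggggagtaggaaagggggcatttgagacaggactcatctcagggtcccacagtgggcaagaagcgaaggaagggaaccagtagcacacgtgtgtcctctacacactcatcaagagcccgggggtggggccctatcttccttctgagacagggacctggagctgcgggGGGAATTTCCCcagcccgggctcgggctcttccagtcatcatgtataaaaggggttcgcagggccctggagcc
Cxcl10: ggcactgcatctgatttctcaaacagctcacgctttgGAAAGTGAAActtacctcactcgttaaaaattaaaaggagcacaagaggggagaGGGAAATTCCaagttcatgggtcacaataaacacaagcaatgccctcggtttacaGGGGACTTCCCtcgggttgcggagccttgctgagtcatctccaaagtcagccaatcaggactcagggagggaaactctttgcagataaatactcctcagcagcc
Cxcl9: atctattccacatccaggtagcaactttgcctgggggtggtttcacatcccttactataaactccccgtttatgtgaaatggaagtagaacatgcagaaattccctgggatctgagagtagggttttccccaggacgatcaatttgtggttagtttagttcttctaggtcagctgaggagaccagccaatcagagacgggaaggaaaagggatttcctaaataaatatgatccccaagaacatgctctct
Pf4: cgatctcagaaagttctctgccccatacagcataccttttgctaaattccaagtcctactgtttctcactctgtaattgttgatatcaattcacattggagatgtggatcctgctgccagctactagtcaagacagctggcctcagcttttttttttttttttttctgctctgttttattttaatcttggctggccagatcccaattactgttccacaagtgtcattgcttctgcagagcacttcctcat

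The motifs were searched on both strands: the NF-kB consensus, the STAT6 site (TTC and GAA with 4 bases of any kind between them) and the interferon-stimulated response element (GAAA and GAAA with 2 bases of any kind between them). The promoters of Cxcl1, Cxcl2 and Cxcl3 hold the same pair of overlapping NF-kB matches, GGGAATTTCC and GGAATTTCCC. The first of them begins 71 bases before the start of Cxcl1, 97 before Cxcl2 and 73 before Cxcl3. The promoter of Cxcl10 holds NF-kB matches that begin 159, 104 and 103 bases before the start, of which the last 2 overlap, and an interferon-stimulated response element, GAAAGTGAAA, that begins 213 bases before it. No match to any of the 3 motifs was found in these windows of Cxcl9, Pf4 and Ppbp. Among the 32851 promoters of the same length, 7.25% hold the NF-kB motif, 5.85% the STAT6 site and 2.98% the interferon-stimulated response element. A match describes letters and not a bound site.

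After 24 h of LPS with IFNγ, 9 of the 10 CXC chemokine transcripts were higher than in M0 macrophages and none was lower (edgeR adjusted p under 0.05). Among all 16110 genes tested, 35.4% were higher and 37.5% lower in this comparison. The median log2 fold change of the 10 genes was 5.26, and that of all genes was -0.04. Against M2-like macrophages, 8 genes were higher and 1, Ppbp, was lower, beside 34.6% and 38.1% of all genes, and the medians were 4.96 and -0.06. All 10 genes passed the filter on low counts here. Cxcl5 and Cxcl11 passed only because of their M1-like libraries and Ppbp only because of its M2-like libraries, so a difference was built into these 3 genes, and their calls add no support to the counts.

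The interferon-induced ligands of Cxcr3 rose most. Cxcl9 stood at 2682, 2538 and 2240 CPM in the M1-like macrophages of the 3 mice, at 0.28, 0.131 and 0.0919 CPM in M0 and at 0.324, 0.177 and 0.308 CPM in M2-like macrophages. The groups are far apart, with a log2 fold change of 13.86 ± 0.22 (SE) against M0 (edgeR adjusted p = 2.65e-13). Cxcl10 stood at 1208, 1216 and 1435 CPM in M1-like macrophages, and no M0 or M2-like library exceeded 0.239 CPM. Its log2 fold change was 12.91 ± 0.21 against M0 (edgeR adjusted p = 2.46e-13). Cxcl11 had 6278 reads in M1-like macrophages, at 40.3, 42.1 and 65.3 CPM, and no read in M0 or M2-like macrophages. Set against a floor of 3 reads over the group, the Cxcl11 transcript was at least 2662-fold higher than in M0 and at least 2610-fold higher than in M2-like macrophages, which covers counting error only.

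The neutrophil-attracting ligands of Cxcr2 rose together at lower levels. Cxcl2 rose from 1.36, 1.75 and 1.54 CPM in M0 to 52.9, 49.3 and 54.1 CPM in M1-like macrophages, for a log2 fold change of 5.06 ± 0.17 (SE, edgeR adjusted p = 9.17e-11). Cxcl1 rose from 0.96, 0.746 and 0.754 to 12.9, 11.3 and 10.6 CPM, with a log2 fold change of 3.82 ± 0.14 (edgeR adjusted p = 1.69e-10). Cxcl3 stood at 19.9, 19.2 and 21.4 CPM in M1-like macrophages and at or below 0.533 CPM in M0, and Cxcl5 at 3.92, 3.58 and 2.89 CPM against at most 0.168 CPM. For each of these genes, the lowest M1-like library lay above the highest M0 and M2-like libraries.

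Cxcl16, which links scavenging and chemotaxis, was already present in M0 at 45.0, 39.7 and 39.4 CPM and reached 1144, 1147 and 1109 CPM in M1-like macrophages. Its log2 fold change was 4.78 ± 0.11 against M0 (edgeR adjusted p = 2.90e-12) and 5.78 ± 0.11 against M2-like macrophages (edgeR adjusted p = 9.87e-13). Cxcl16 overlaps Zmynd15 on the opposite strand, and the strand setting of the counting is not given in the sources used here. Zmynd15 held 8992 reads over the 24 h libraries, beside 140523 reads of Cxcl16 in M1-like, 6521 in M0 and 3164 in M2-like libraries. The part of this overlap in the Cxcl16 levels was not tested. Cxcl10 and Cxcl11 overlap Art3, which held 25 reads at 24 h.

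The platelet-type genes moved differently. Pf4 was abundant in every condition, at 36.1, 30.8 and 38.6 CPM in M0, at 47.3, 48.5 and 56.8 CPM after LPS with IFNγ and at 50.2, 46.9 and 53.8 CPM after IL-4. Both polarized groups lay above M0, by 0.53 ± 0.10 for M1-like (SE, edgeR adjusted p = 0.000307) and 0.52 ± 0.10 for M2-like macrophages (edgeR adjusted p = 0.00205) on the log2 scale, and they overlapped each other. Ppbp was near the limit of detection, with 13 reads in M0 libraries, 2 reads in M1-like and 66 reads in M2-like libraries. The ratio of M2-like to M1-like Ppbp was 26.5 (95% exact interval 7.04 to 223, counting error only), and its edgeR adjusted p was 0.000646. Ppbp passed the filter only through its M2-like libraries, so a difference was built in and this test adds no support. In M1-like against M0, Ppbp did not pass the test (log2 fold change -2.18 ± 1.25, edgeR adjusted p = 0.135).

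Markers of other cell types were low in these libraries. The 6 platelet markers summed to between 0.541 and 2.48 CPM, below 1 in M1-like macrophages, and Pf4 lay above 30 CPM in each library. The 6 neutrophil markers summed to between 9.53 and 14.4 CPM in M1-like and between 5.62 and 8.03 CPM in the other macrophages, most of it S100a8, while S100a9 was at most 0.0400 CPM. The 4 T cell markers summed to between 4.87 and 5.82 CPM in M1-like and to at most 0.920 CPM in the other macrophages, mostly Lck, with Cd3e, Cd3d and Cd3g below 0.1 CPM. The 4 eosinophil markers summed to between 0.208 and 0.792 CPM in M1-like and between 13.7 and 18.5 CPM in the other macrophages, mostly Siglecf, while Epx, Prg2 and Ear6 were at or near 0. Summed markers of B cells, mast cells and mesothelial cells and fibroblasts reached at most 13.8, 3.90 and 12.4 CPM. Of the 8 lists, macrophages included, 7 did not overlap between M1-like and M0 libraries (2 higher and 5 lower), 6 between M1-like and M2-like and 4 between M2-like and M0. The part of these markers in the chemokine results was not tested.

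**Figure D1:**
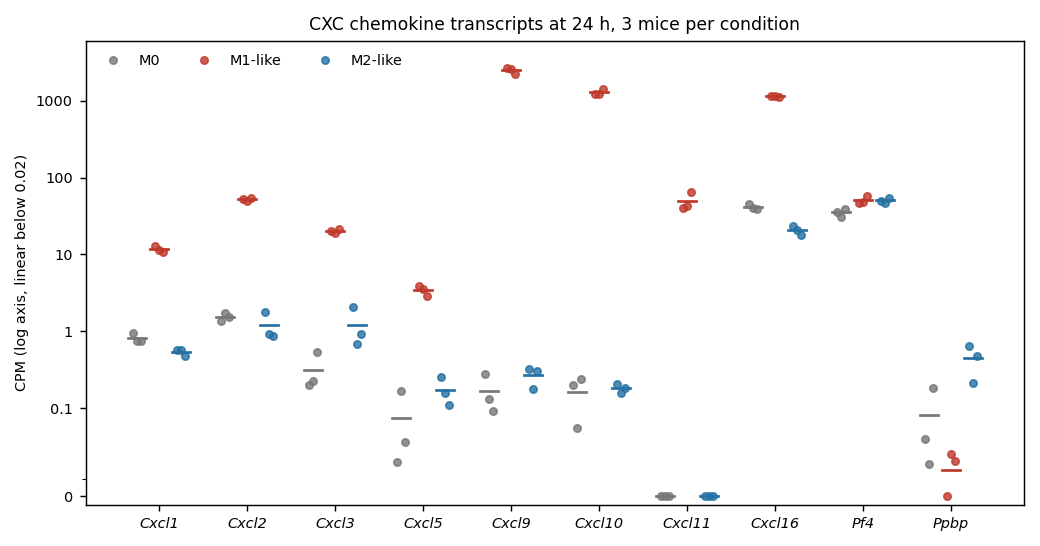
Transcript level of the 10 CXC chemokine genes in CPM (log axis, linear below 0.02) in M0, M1-like and M2-like macrophages after 24 h, with 1 point per mouse and a line at the mean. Cxcl9, Cxcl10 and Cxcl16 stood at or above 1109 CPM in M1-like macrophages, Cxcl11 had no read in the other groups, and Pf4 stayed between 30.8 and 56.8 CPM throughout.

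Per length, the order of the chemokine levels changed with polarization. In M0 and M2-like macrophages, Pf4 led with 48.8 ± 5.51 and 69.8 ± 4.74 RPKM (CPM divided by the exon length in kilobases, SD, n = 3), followed by Cxcl16 with 13.7 ± 1.04 and 6.84 ± 0.992 RPKM. No other member exceeded a mean of 0.751 RPKM in these groups. In M1-like macrophages the order was Cxcl9 with 825 ± 74.7, Cxcl10 with 571 ± 57.2, Cxcl16 with 375 ± 7.04 and Pf4 with 70.6 ± 7.16 RPKM. Cxcl2 followed with 25.2 ± 1.20, Cxcl11 with 13 ± 3.68, Cxcl1 with 6.19 ± 0.630, Cxcl3 with 5.76 ± 0.316 and Cxcl5 with 1.86 ± 0.280 RPKM. Cxcl1 and Cxcl3 are neighbors in this order whose means differ by less than the SD of Cxcl1.

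After 24 h of IL-4, single members were called in both directions, in counts too small to describe the family. Compared with M0, M2-like macrophages had 3 higher genes, Cxcl3, Pf4 and Ppbp, and 2 lower genes, Cxcl1 and Cxcl16, of 10 tested, beside 13.5% and 14.4% of all genes. The call of Ppbp adds no support to this count, since the gene was tested only through its M2-like libraries. Cxcl16 fell to 23.6, 20.7 and 17.6 CPM, which is below every M0 library, and the log2 fold change was -1.0 ± 0.10 (SE, edgeR adjusted p = 2.13e-05). Cxcl3 stood at 2.06, 0.689 and 0.925 CPM against 0.2, 0.224 and 0.533 CPM in M0, for a log2 fold change of 1.87 ± 0.44 (edgeR adjusted p = 0.00794). Ppbp stood at 0.648, 0.212 and 0.471 CPM against 0.0400, 0.0186 and 0.184 CPM in M0, with a log2 fold change of 2.36 ± 0.61 (edgeR adjusted p = 0.0133). Without M0 mouse 1 or mouse 2, the edgeR adjusted p of Ppbp was 0.0569 and 0.0564. Cxcl1 stood at 0.579, 0.565 and 0.471 CPM, for a log2 fold change of -0.61 ± 0.18 (edgeR adjusted p = 0.0256). The edgeR adjusted p of Cxcl1 was 0.119 without M0 mouse 1, 0.0504 without M2-like mouse 2 and 0.0807 without M2-like mouse 3. It was 0.0518 with only the compared groups, and 0.111 and 0.0838 with the first and second technical run alone.

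In the reprogramming experiment, 8 of the 10 genes passed the filter on low counts. Cxcl11 and Ppbp did not, with 35 and 3 reads over the 36 libraries, and Cxcl9 passed only because of its M1-like libraries. The comparison asked how M1-like and M2-like macrophages differ in this experiment among untransfected and among mock cells. In untransfected macrophages, M1-like cells had 4 of 8 genes above the M2-like level (Cxcl2, Cxcl9, Cxcl10 and Cxcl16) and none was lower, beside 31.3% and 30.2% of all 14172 genes tested. In mock macrophages, Cxcl9 and Cxcl16 were higher and Cxcl1 and Cxcl5 were lower in M1-like cells, beside 30.9% and 29.8% of all genes. The median log2 fold change of the 8 genes was 1.11 in untransfected and 0.80 in mock cells, against 0.03 over all genes in both. Since Cxcl9 was tested only through the group in which it was high, its call adds no support to these counts and medians.

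Cxcl9 and Cxcl16 kept a wide gap. Cxcl9 stood at 77.0, 49.5 and 65.5 CPM in untransfected M1-like macrophages, with a single read in all M2-like libraries together. The ratio was 2875 (95% exact interval 516 to 113599, counting error only). The edgeR adjusted p was 4.21e-19, for a gene that passed the filter only through its M1-like libraries. In the mock macrophages Cxcl9 stood at 58.6, 50.6 and 48.8 CPM in M1-like cells and at 0.192, 0.14 and 0 CPM in M2-like cells, a ratio of 466 (199 to 1436). Cxcl16 stood at 292, 233 and 291 CPM in untransfected M1-like and at 36, 45.8 and 39.5 CPM in M2-like macrophages, for a log2 fold change of 2.75 ± 0.15 (SE, edgeR adjusted p = 2.60e-16). With mock transfection its log2 fold change was 2.40 ± 0.15 (edgeR adjusted p = 8.41e-15). Markers of B cells (0.672 to 1.47 CPM in M1-like, 6.80 to 13.8 CPM in M2-like) and eosinophils (0.610 to 1.70 and 15.2 to 17.8 CPM) were lower in the untransfected M1-like libraries. In the untransfected and in the mock comparison alike, 7 of 8 marker lists did not overlap. Neutrophil and T cell markers were higher and macrophage, B cell, eosinophil, mast cell and mesothelial and fibroblast markers lower in M1-like cells. The neutrophil sums were mostly S100a8. In untransfected and mock M1-like libraries, S100a9, Retnlg, Ly6g and Mpo had no read, nor had Cd3e of the T cell list. Prg2 and Ear6 of the eosinophil list had no read in untransfected M1-like and M2-like libraries. The part of the markers in these gaps was not tested. At 24 h the lowest M1-like libraries had held 2240 CPM of Cxcl9 and 1109 CPM of Cxcl16.

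Cxcl10 and Cxcl2 also passed in untransfected macrophages. Cxcl10 stood at 1.47, 8.1 and 6.62 CPM in untransfected M1-like and at 0.358, 1.16 and 0.595 CPM in M2-like macrophages, for a log2 fold change of 2.89 ± 0.72 (SE, edgeR adjusted p = 0.000812). In mock macrophages the Cxcl10 libraries overlapped and the edgeR adjusted p was 0.0541 (log2 fold change 1.31 ± 0.59). It passed with only the compared groups (edgeR adjusted p = 0.0377), with the replicate block (0.0106), without the filter (1.62e-06) and without M1-like mock replicate 1 (0.0122). Cxcl2 stood at 1.89, 15.2 and 3.47 CPM in untransfected M1-like macrophages and at 2.29, 3.35 and 1.92 CPM in M2-like macrophages, so that the groups overlapped although the edgeR adjusted p was 0.00828. The call for Cxcl2 rested on M1-like replicate 2. Without it, the log2 fold change fell from 1.42 to 0.08 (edgeR adjusted p = 0.873), and with only the compared groups in the fit the edgeR adjusted p was 0.0748.

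Cxcl1 and Cxcl5, both ligands of Cxcr2, were below their M2-like level in M1-like mock macrophages. Cxcl1 stood at 0.816, 1.08 and 0.464 CPM against 2.05, 2.1 and 2.3 CPM, for a log2 fold change of -1.42 ± 0.42 (SE, edgeR adjusted p = 0.00452). Cxcl5 stood at 0.598, 1.96 and 2.79 CPM against 4.23, 6.03 and 5.02 CPM, with a log2 fold change of -1.51 ± 0.52 (edgeR adjusted p = 0.013). Without M1-like mock replicate 1 the value for Cxcl5 was -1.11 (edgeR adjusted p = 0.0839). Of 8 marker lists, 7 did not overlap between these groups, with 2 higher and 5 lower in M1-like mock. Among the lower lists, the 6 markers of mesothelial cells and fibroblasts summed to between 9.46 and 16.9 CPM in M1-like mock libraries. In M2-like mock libraries they summed to between 65.2 and 116 CPM, and all 6 had reads in both groups. The part of the lists in the result was not tested. In untransfected macrophages neither gene passed the test, at -0.20 ± 0.44 for Cxcl1 and -0.42 ± 0.56 for Cxcl5, and the marker sums were 14.7 to 36 CPM in M1-like and 44.3 to 171 CPM in M2-like libraries.

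**Figure D2:**
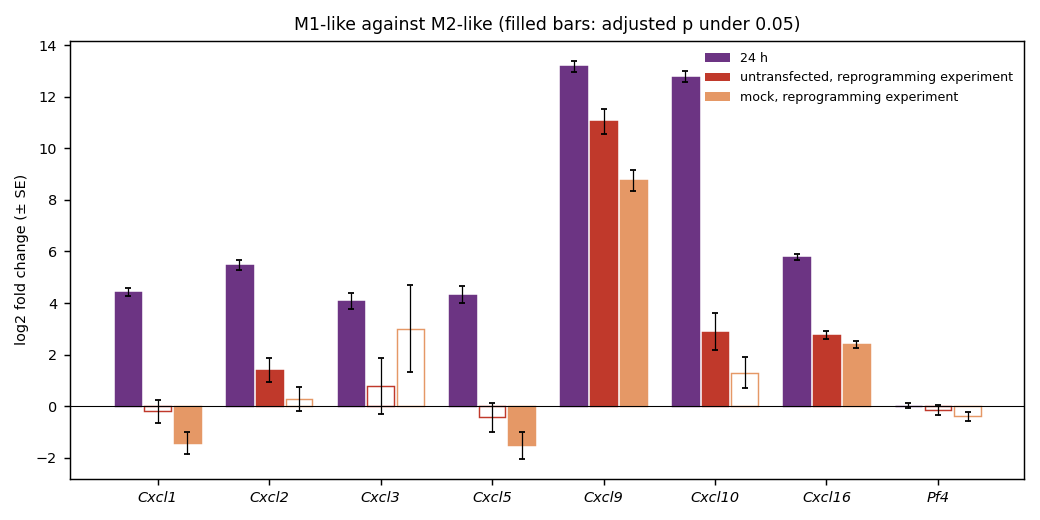
Log2 fold change (± SE, 3 against 3 samples) of M1-like against M2-like macrophages for 8 genes at 24 h, untransfected and with mock transfection, filled where the edgeR adjusted p was under 0.05. Cxcl9 and Cxcl16 were higher in M1-like macrophages in all 3 settings and Cxcl1 and Cxcl5 were lower after mock transfection, while the height of the untransfected Cxcl9 bar rests on 1 read in the M2-like group.

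Against untransfected M0 macrophages, M1-like macrophages had 3 higher members, Cxcl9 (tested only through its M1-like libraries), Cxcl10 and Cxcl16, and 1 lower member, Pf4, beside 29.0% and 28.7% of all genes. M2-like macrophages differed from M0 in Pf4 alone, which was lower, beside 10.7% higher and 9.19% lower genes overall. Pf4 stood at 61.3, 49.5 and 54.7 CPM in M0, at 27.7, 12.6 and 24.1 CPM in M1-like cells, and at 25, 24 and 22.9 CPM in M2-like cells. Both polarized groups lay below every M0 library, by -1.35 ± 0.19 for M1-like (SE, edgeR adjusted p = 2.72e-07) and -1.20 ± 0.19 for M2-like macrophages (edgeR adjusted p = 1.81e-05) on the log2 scale. The 6 platelet markers summed to between 2.25 and 3.97 CPM over these groups, and Gp1bb and Gp6 had no read in them. Of 8 marker lists, 7 did not overlap between M1-like and M0 libraries, 2 higher and 5 lower, and 0 between M2-like and M0. Macrophage markers summed to 6599.5 to 7737.8 CPM in M1-like and 16397.5 to 16745.3 CPM in M0. B cell, eosinophil, mast cell and mesothelial and fibroblast markers were lower too, and neutrophil (mostly S100a8) and T cell markers higher. Cd3e, Prg2 and Ear6 had no read in either group. The part of the markers in these changes was not tested. The order of Pf4 differed with mock transfection, where it ranged from 16.4 to 21.9 CPM in M1-like and from 22.2 to 30.2 CPM in M2-like mock cells, above the 9.46 to 12.9 CPM of M0 mock.

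Mock and untransfected cells were then compared within each polarization. The mock cells were harvested 48 h after transfection, and the time of the untransfected libraries is not given. Reagent and time in culture therefore cannot be told apart. In M0 macrophages, mock transfection was followed by higher Cxcl1, Cxcl2, Cxcl10 and Cxcl16 and lower Pf4, 5 of 8 genes, beside 11.7% higher and 8.66% lower genes overall. Pf4 stood at 9.46, 10.7 and 12.9 CPM in M0 mock, the lowest group of the 12, for a log2 fold change of -2.32 ± 0.20 (SE, edgeR adjusted p = 2.98e-10). Cxcl10 rose from 0.22, 0.186 and 0.136 CPM to 1.54, 3.12 and 3.98 CPM, for a log2 fold change of 3.96 ± 1.03 (edgeR adjusted p = 0.0056). Cxcl16 rose to 54.5, 52.1 and 96.7 CPM, by 0.73 ± 0.15 on the log2 scale (edgeR adjusted p = 0.000601). Cxcl1 (log2 fold change 1.20, edgeR adjusted p = 0.0365) and Cxcl2 (1.18, edgeR adjusted p = 0.0488) lay close to the threshold. Cxcl1 lost the call without M0 replicate 1 or 2 or M0 mock replicate 2 or 3 (edgeR adjusted p between 0.0558 and 0.199). Cxcl2 lost it without M0 replicate 1 or 3 or M0 mock replicate 1 or 3 (0.0875 to 0.178). Of 8 marker lists, 3 did not overlap between M0 mock and M0 and were lower with mock, those of macrophages, of neutrophils (3.60 to 5.68 against 6.02 to 10.2 CPM) and of eosinophils (9.08 to 12.4 against 15.7 to 23.9 CPM), while the mesothelial and fibroblast markers overlapped (88.6 to 142 against 49.8 to 91.6 CPM). In M0 and M0 mock, S100a9, Retnlg and Ly6g of the neutrophil list and Epx, Prg2 and Ear6 of the eosinophil list had no read. The part of the markers in these changes was not tested.

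In M1-like macrophages no member differed between mock and untransfected cells in edgeR, with 0 of 8 members at an unadjusted p under 0.05, and DESeq2 called 0. The background there was 0% higher and 0% lower, as no gene passed in either tool, and 438 genes had an unadjusted p under 0.05. In M2-like macrophages 0 of 8 members passed in edgeR, 0 had an unadjusted p under 0.05 and DESeq2 called 0, beside 1.67% higher and 0.0988% lower genes overall. The Cxcl10 values were 0.96, 2.73 and 2.44 CPM in M2-like mock and 0.358, 1.16 and 0.595 CPM in untransfected M2-like macrophages, with a log2 fold change of 1.49 ± 0.84 (SE, edgeR adjusted p = 0.668). The difference between mock and untransfected cells in M1-like minus that in M2-like macrophages passed for 0 of 8 members in edgeR. It is also the change of the M1-like against M2-like gap between untransfected and mock cells. DESeq2 called 0, 0 had an unadjusted p under 0.05, and 0.0353% of all genes were higher and 1.09% lower. For Cxcl1 this difference was -1.23 ± 0.62 and for Cxcl5 -1.09 ± 0.77 on the log2 scale.

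The siRNA pools addressed whether removing the targets moves M2-like macrophages toward M1-like expression. The negative pool itself raised Cxcl16 over mock, from 40.3, 45.3 and 42.2 CPM to 67.6, 61.4 and 82.5 CPM (log2 fold change 0.73 ± 0.15, SE, edgeR adjusted p = 0.00114). It was the only member called of 8, beside 6.67% higher and 5.03% lower genes overall. Summed markers of mesothelial cells and fibroblasts (123 to 181 against 65.2 to 116 CPM) and of eosinophils (33.4 to 38.7 against 18.7 to 19.8 CPM) were higher without overlap, and those of macrophages and platelets were lower. Epx and Prg2 of the eosinophil list had no read in either group. The part of the markers in the result was not tested. For Cxcl10 every library with the negative pool, at 4.33, 4.47 and 6.01 CPM, lay above every mock library, but the edgeR adjusted p was 0.176.

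The combined pool was followed by higher Cxcl2, Cxcl10 and Cxcl16 and lower Pf4 than the negative pool, 4 of 8 genes, beside 12.5% higher and 13.9% lower genes overall. The median log2 fold change of the 8 genes was 0.18, and that of all genes was 0.01. Cxcl10 reached 12.8, 11.4 and 34.9 CPM, the highest mean among the 12 conditions, with a log2 fold change of 1.99 ± 0.47 (SE, edgeR adjusted p = 0.00181). Without combined replicate 3 it was 1.28 (edgeR adjusted p = 0.0514). Cxcl2 stood at 10.5, 10.5 and 9.61 CPM against 4.69, 3.87 and 4.06 CPM, for a log2 fold change of 1.27 ± 0.41 (edgeR adjusted p = 0.0202). The edgeR adjusted p of Cxcl2 was 0.0629 and 0.0638 without replicate 2 or replicate 3 of the negative pool.

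Cxcl16 stood at 114, 114 and 129 CPM with the combined pool, above each library with the negative pool, by 0.75 ± 0.15 on the log2 scale (SE, edgeR adjusted p = 0.000225). Pf4 moved the other way, to 15.1, 17.2 and 14.2 CPM from 30.9, 28.9 and 28.7 CPM, for a log2 fold change of -0.93 ± 0.20 (edgeR adjusted p = 0.000578). The 6 platelet markers summed to 1.46 to 2.06 CPM with the combined and 1.09 to 2.20 CPM with the negative pool, and the mesothelial and fibroblast markers to 106 to 162 and 123 to 181 CPM. All 8 marker lists overlapped between these pools. Cxcl9 stood at 0.254, 0.652 and 1.28 CPM against 0.181, 0.4 and 0.114 CPM and did not pass (log2 fold change 1.67 ± 0.67, edgeR adjusted p = 0.0638). The Cxcl9 level of M1-like mock macrophages was 52.6 ± 5.25 CPM and that of the combined pool 0.728 ± 0.516 CPM (SD, n = 3). Cxcl11 had 14 reads with the combined pool, at 0.191, 0.0543 and 0.608 CPM, and no read with the negative pool or mock. Cxcl1 and Cxcl5 did not pass, at -0.39 ± 0.38 and -0.44 ± 0.43.

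Against mock, the combined pool was followed by 4 higher members, Cxcl2, Cxcl9, Cxcl10 and Cxcl16, and by lower Pf4, beside 19.0% and 18.1% of all genes. The log2 fold changes were 3.28 ± 0.54 for Cxcl10, 1.63 ± 0.43 for Cxcl2, 1.48 ± 0.15 for Cxcl16 and -0.76 ± 0.20 for Pf4. Cxcl9 was higher by 2.61 ± 0.80 (edgeR adjusted p = 0.0105), on 37 reads against 5, and its edgeR adjusted p was 0.102 without combined replicate 3 and 0.0544 without mock replicate 3. The comparisons with mock and with the negative pool share the combined libraries, so that they are not independent. In the comparison with mock, summed markers of B cells (13 to 24.7 against 6.55 to 11.6 CPM), T cells (2.72 to 2.86 against 0.768 to 1.12 CPM) and eosinophils (23.0 to 35.0 against 18.7 to 19.8 CPM) were higher without overlap, and those of platelets (1.46 to 2.06 against 2.52 to 3.21 CPM) and macrophages were lower. Cd3d and Cd3g of the T cell list had no read in either group. The part of the markers in the result was not tested.

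Among the single pools, the Myc pool changed 3 of 8 members, with Cxcl10 and Cxcl16 higher and Pf4 lower than with the negative pool, beside 13.9% higher and 15.6% lower genes overall. Cxcl10 stood at 12.7, 12.6 and 27.2 CPM (log2 fold change 1.81 ± 0.47, SE, edgeR adjusted p = 0.00363) and Pf4 at 17.4, 17.4 and 11.9 CPM (-0.91 ± 0.19, edgeR adjusted p = 0.000532). Cxcl16 stood at 95.4, 86.1 and 115 CPM (0.48 ± 0.15, edgeR adjusted p = 0.0121), and its edgeR adjusted p was 0.0987 without Myc replicate 3 and 0.0763 without replicate 2 of the negative pool. Cxcl2 stood at 7.89, 9.1 and 8.44 CPM, above every library with the negative pool, with a log2 fold change of 1.01 ± 0.41 (edgeR adjusted p = 0.0632). The Myc and combined comparisons share the negative pool libraries, and their libraries overlapped for Cxcl10, Cxcl16 and Pf4. Macrophage and mast cell markers were lower with the Myc pool without overlap, and their part was not tested. Per the study's methods, the siRNAs against Myc came from another maker than those against E2f1, Pparg and Stat6.

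The pools against E2f1, Pparg and Stat6 gave no called member of 8 in edgeR. The backgrounds were 0.261% higher and 0.649% lower genes for E2f1, 2.71% and 3.03% for Pparg, and 0.466% and 1.04% for Stat6. At an unadjusted p under 0.05 there was 1 member for E2f1 (Cxcl16), 1 for Pparg (Cxcl16) and 2 for Stat6 (Cxcl1 and Cxcl10), and DESeq2 called 0, 1 (Cxcl16) and 0. Cxcl16 stood at 95, 95.1 and 95.5 CPM with the Pparg pool, above every library with the negative pool (log2 fold change 0.43 ± 0.15, SE, edgeR adjusted p = 0.079). With the E2f1 pool it stood at 52.7, 58.1 and 53.0 CPM, below each of them (-0.37 ± 0.15, edgeR adjusted p = 0.315). Cxcl10 stood at 7.06, 7.83 and 16.0 CPM with the Stat6 pool and at 7.3, 9.73 and 10.4 CPM with the Pparg pool, above the negative pool in each library, and neither passed (edgeR adjusted p = 0.357 and 0.332). Cxcl1 had its highest mean of the 12 conditions with the Stat6 pool, at 3.37, 4.05 and 3.71 CPM (0.76 ± 0.36, edgeR adjusted p = 0.38).

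**Figure D3:**
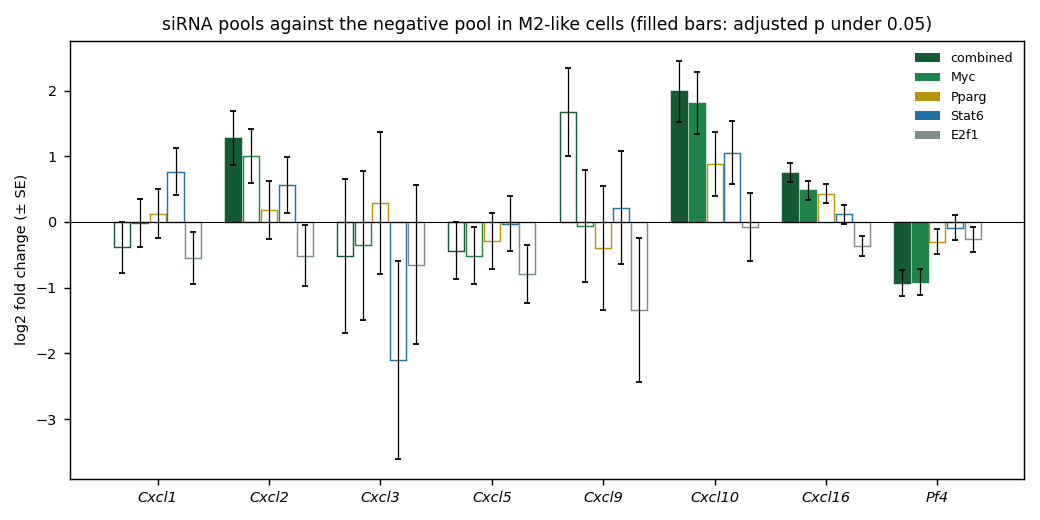
Log2 fold change (± SE, 3 against 3 samples) of 8 CXC chemokine genes with each siRNA pool against the negative pool in M2-like macrophages, filled where the edgeR adjusted p was under 0.05. Filled bars are those of Cxcl2, Cxcl10, Cxcl16 and Pf4 with the combined pool and of Cxcl10, Cxcl16 and Pf4 with the Myc pool.

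The levels of Cxcl16 over the 12 conditions fell in the order M1-like (272 ± 33.7 CPM), M1-like mock (225 ± 20.6), combined pool (119 ± 8.47), Myc pool (98.7 ± 14.5), Pparg pool (95.2 ± 0.230), Stat6 pool (76.5 ± 4.82), negative pool (70.5 ± 10.8), M0 mock (67.7 ± 25.1), E2f1 pool (54.6 ± 3.02), M2-like mock (42.6 ± 2.50), M0 (40.8 ± 2.86) and M2-like (40.5 ± 4.98; SD, n = 3). Neighbors without overlapping libraries were M1-like mock and the combined pool, the Pparg and Stat6 pools, and the E2f1 pool and M2-like mock. The other neighbors overlapped.

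Cxcl10 had its highest means with the combined (19.7 ± 13.2 CPM) and Myc pools (17.5 ± 8.42), followed by the Stat6 (10.3 ± 4.96) and Pparg pools (9.15 ± 1.63). M1-like (5.40 ± 3.48), M1-like mock (4.95 ± 3.71), negative pool (4.94 ± 0.929), E2f1 pool (4.68 ± 1.18), M0 mock (2.88 ± 1.24) and M2-like mock (2.04 ± 0.951) came next, with overlapping libraries. M2-like (0.704 ± 0.412) and M0 macrophages (0.181 ± 0.0419) stood last, and their libraries did not overlap each other. The highest library was replicate 3 with the combined, Myc, Stat6 and Pparg pools and with the negative pool.

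Pf4 was led by M0 (55.2 ± 5.93 CPM), whose libraries lay above all others. The negative pool, Stat6 pool, M2-like mock, E2f1 pool, M2-like, Pparg pool, M1-like and M1-like mock followed, with means between 20 and 29.5 CPM. The Myc pool (15.6 ± 3.15), the combined pool (15.5 ± 1.57) and M0 mock (11 ± 1.75) stood last. Cxcl3 stayed at or below 2.79 CPM, and within M0 its libraries ranged from 0.293 to 2.79 CPM.

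**Figure D4:**
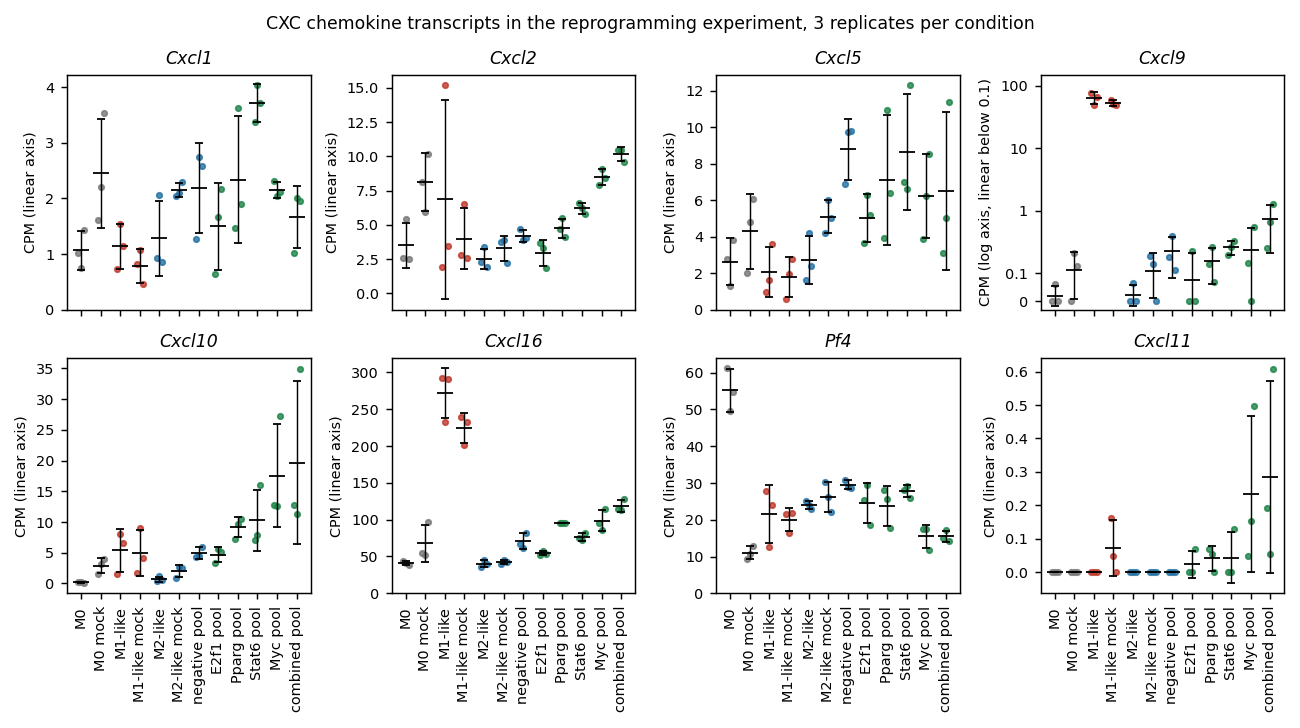
Transcript level in CPM of 8 CXC chemokine genes in the 12 conditions of the reprogramming experiment, with 1 point per replicate and bars for the mean and SD (n = 3), linear axes except for Cxcl9. Cxcl9 and Cxcl16 were highest in M1-like macrophages, Cxcl2 and Cxcl10 had their highest means with the combined pool, and Pf4 was highest in M0.

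The remaining CXC ligands were fixed as a list of 5 (Cxcl12, Cxcl13, Cxcl14, Cxcl15 and Cxcl17), of which 3 passed the filter. At 24 h, M1-like macrophages had less of all 3 than M2-like macrophages, beside 38.1% lower among all genes. Cxcl14 stood at 0.214 ± 0.0525 against 7.48 ± 1.07 CPM (SD, n = 3), for a log2 fold change of -5.14 ± 0.20 (SE, edgeR adjusted p = 2.53e-10). Cxcl12, the ligand of Cxcr4, had a log2 fold change of -2.02 and Cxcl13, which draws B cells through Cxcr5, of -1.41. With the combined pool against the negative pool, Cxcl12 alone was lower, at 5.29 ± 1.96 against 11.3 ± 2.75 CPM (log2 fold change -1.09 ± 0.37, edgeR adjusted p = 0.0257). In that comparison 12.5% of all genes were higher and 13.9% lower.

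Of 8 receptors, 6 were tested at 24 h, and M1-like macrophages had 2 above and 3 below the M2-like level, beside 34.6% and 38.1% of all genes. Cxcr2, the receptor of Cxcl1, Cxcl2, Cxcl3 and Cxcl5, was lower at 0.0175 ± 0.0152 against 0.226 ± 0.00757 CPM, and Cxcr1 was lower too. The M1-like libraries lay below the filter minimum of 0.206 CPM for Cxcr2, so its call adds no support to the count. The groups that carried the other receptors past the filter were not examined, so the counts give no result about the receptors. Cxcr4 was the most abundant of the tested receptors, at 25.9 ± 7.87 against 91.0 ± 3.07 CPM (log2 fold change -1.82 ± 0.17, SE, edgeR adjusted p = 8.49e-07). Cxcr5 and Cxcr6, the receptor of Cxcl16, were higher, and Cxcr3 did not pass (-0.23 ± 0.46, edgeR adjusted p = 0.699). With the combined pool, where 12.5% of all genes were higher and 13.9% lower, 5 receptors were tested, and Cxcr1 was higher (0.80 ± 0.30, edgeR adjusted p = 0.0481) and Cxcr2 lower (-1.51 ± 0.41, edgeR adjusted p = 0.00671).

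Of the 4 proteases that release or trim CXC chemokines, 2 were higher and 2 lower at 24 h, beside 34.6% and 38.1% of all genes. Adam10, which sheds Cxcl16 from the membrane, stood at 92.4 ± 3.33 CPM in M1-like against 294 ± 24.7 CPM in M2-like cells (log2 fold change -1.67 ± 0.07, SE, edgeR adjusted p = 6.68e-10), and Mmp9 was lower as well. Adam17 was higher, at 461 ± 11.7 against 271 ± 13.8 CPM, as was Dpp4, which trims the ligands of Cxcr3. With the combined pool 1 of 4 passed, Adam10, which was lower (-0.39 ± 0.07, edgeR adjusted p = 5.84e-05).

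The list of 13 inducers and signal genes of the CXC chemokines held receptors, transcription factors, cytokines and the NF-kB inhibitor Nfkbia. At 24 h, 12 were tested. In M1-like macrophages, 9 of them were above and 2 below the M2-like level, beside 34.6% and 38.1% of all genes. Their median log2 fold change was 3.16, and that of all genes was -0.06. Il1b and Tnf, cytokines that act through NF-kB, rose most, by 9.20 ± 0.26 and 6.99 ± 0.15 on the log2 scale (SE), and Irf1, an interferon-response factor, rose by 5.40 ± 0.09. Tlr4 and Ifngr1, the receptors of LPS and IFNγ, were lower, by -1.73 ± 0.11 and -1.52 ± 0.05. With the combined pool against the negative pool, 8 of 13 were higher (Nfkb1, Rela, Nfkbia, Nfkbiz, Tnf, Il1a, Ifnb1 and Irf1) and 2 were lower (Tlr4 and Ifngr2), beside 12.5% and 13.9% of all genes, and the median was 0.42. Nfkbia, the NF-kB inhibitor that NF-kB itself induces, rose by 1.69 ± 0.21 (edgeR adjusted p = 3.18e-07) and Tnf by 1.49 ± 0.19 (edgeR adjusted p = 4.13e-07). Ifnb1 stood at 0.967 ± 0.486 against 0.0985 ± 0.118 CPM (SD, n = 3). The negative pool libraries lay below the filter minimum of 0.634 CPM for Ifnb1, so its call adds no support to the count. The groups that carried the other genes of this list past the filter were not examined.

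**Figure D5:**
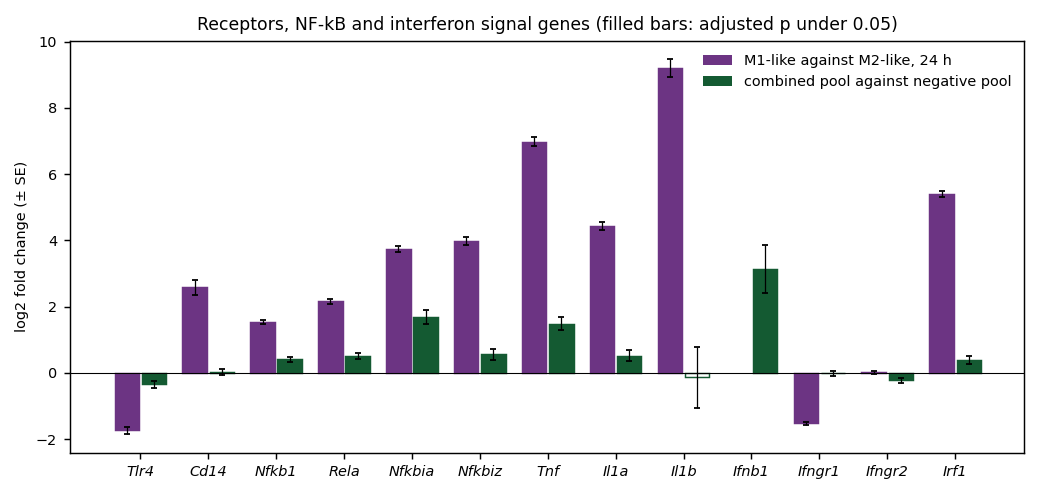
Log2 fold change (± SE, 3 against 3 samples) of 13 inducers and signal genes of the CXC chemokines, in M1-like against M2-like macrophages at 24 h and with the combined pool against the negative pool, filled where the edgeR adjusted p was under 0.05. At 24 h 9 were higher and 2 lower of 12 tested (Ifnb1 was not tested), and with the combined pool 8 were higher and 2 lower of 13. The Ifnb1 call adds no support to the latter count.

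Over the means of the 12 conditions, the genes whose log2 CPM was most alike were found among genes with a mean log2 CPM of at least 2. For Cxcl10 they were Ccl7 (Pearson's r = 0.977), Zbtb21 (0.974) and Psmb10 (0.968). For Cxcl9 they were Sbds (0.994), Rnf4 (0.991) and Stx2 (0.989), and for Cxcl16 Grina (0.984), Nfkbib (0.983) and Setd5 (0.982). For Pf4 they were Prg4 (0.907), Vill (0.863) and Gm7536 (0.860). Among the members, Cxcl9 and Cxcl16 were most alike (0.906), then Cxcl1 and Cxcl5 (0.860) and Cxcl2 and Cxcl10 (0.691), while Cxcl9 and Cxcl10 were at 0.201. These values describe 12 conditions, each the mean of 3 libraries in which both genes were counted, and they carry no test. Cxcl9 had means of 64.0 CPM in M1-like and 52.6 CPM in M1-like mock macrophages and at most 0.728 CPM in every other condition. Its correlations therefore mainly set the M1-like conditions against the rest.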

How the data were processed

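RNA sequencing counts of 54 libraries were used. Reads were trimmed (Trimmomatic), aligned to GRCm38/mm10 (TopHat2) and counted per gene (featureCounts) by the authors, who deposited whole-number read counts. Versions, strand setting and annotation release are not given in the sources used here.

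The technical runs of each mouse and condition (chi-square per gene 1.07 to 1.10, against 3.64 to 52.1 between mice) were summed. GENCODE M21 (GRCm38) gave symbols for 37607 of the 39179 gene IDs. Genes were filtered with filterByExpr (minimum count 10, minimum total 15), which left 16110 and 14172 genes, scaled by TMM and tested with edgeR's two-sided quasi-likelihood test in 1 model per experiment with 1 coefficient per condition. P-values were adjusted over all tested genes (Benjamini-Hochberg) and called under 0.05. The SE is the log2 fold change divided by the root of F. CPM use TMM library sizes, and RPKM divide them by exon length. Intervals are 95% Clopper-Pearson and cover counting error only. The study used DESeq2, which was an alternative here, beside RLE normalization, no filter, only the compared groups, a replicate block, single technical runs and leaving out replicates.

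Mouse numbers pair the polarization samples, since the same animals gave all conditions. Deviations from the condition means had a median correlation of 0.25 over 9 same-mouse pairs (-0.14 over 18 others). The reprogramming replicates share only a number.

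On simulated counts, edgeR recovered 94 of 100 genes with a log2 change of 1 and 100 of 100 with 2 (24 h M1-like against M0, 15926 genes), and 83 and 99 of 100 (negative pool against mock, 13859 genes). It called 6 and 5 unchanged genes. The changed genes were drawn from those with a mean CPM above 1, so recovery was not measured for members below that level.

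All members are named. Other genes come from 4 lists of the CXC system, of which 1 gene and 1 promoter motif are not reported here, and for 4 members the 3 genes most alike over the conditions are given. The members and lists were chosen with earlier results of these data known. Which groups carried a gene past the filter was examined for the members. Of the listed genes, only the levels of Cxcr2 and Ifnb1 were set against the filter minimum. Other listed genes may have been tested only through the group in which they were high. Promoter sequences are RefSeq's (GRCm38.p6) and were found for 7 of 10 members. Tools were R 4.3.3, edgeR 4.0.16, DESeq2 1.42.0, limma 3.58.1, matplotlib 3.10.9, pandas 2.3.3, SciPy 1.17.1, NumPy 2.4.6 and Python 3.11.15.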

Additional observations from a re-analysis of the deposited data

Results flagged for a closer look

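For 3 genes, every sample moved one way at 24 h and the opposite way in 1 arm of the reprogramming experiment, mock for Cxcl1 and Cxcl5 and untransfected for Pf4. The difference was not tested. At 24 h, Cxcl1 was above its M2-like level in M1-like macrophages (log2 fold change 4.43) and lower in M1-like mock than in M2-like mock macrophages (-1.42). Cxcl5 did the same (4.33 and -1.51). Without transfection the Cxcl1 and Cxcl5 libraries overlapped. Pf4 was higher than in M0 at 24 h in M1-like (0.53) and M2-like macrophages (0.52), and lower than in M0 in untransfected M1-like (-1.35) and M2-like macrophages (-1.20) of the reprogramming experiment. In the mock arm Pf4 was not lower, with 16.4 to 21.9 CPM in M1-like and 22.2 to 30.2 CPM in M2-like against 9.46 to 12.9 CPM in M0 mock cells. The experiments differ in read length, library preparation and, for the mock cells, time since polarization. For the untransfected libraries that time is not given, so it may differ too. These differences cannot be told apart here.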

How the results depend on the processing

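No called direction turned under any alternative run, where 1651 values of single genes kept their side of the threshold, 44 gained and 27 lost a call. Without the filter on low counts, the members called numbered 1 higher and 2 lower in untransfected M2-like against M0, 4 higher in M1-like mock against M2-like mock, 2 lower with mock in M0, 2 higher with mock in M2-like, 4 higher with the negative pool against mock, 5 higher with the combined, 4 with the Myc, 2 with the Pparg and 1 with the Stat6 pool against the negative pool, 2 lower with the E2f1 pool and 2 lower for the difference of mock effects. The cause was not tested. The shares of all genes called in the alternative runs are not given here, so counts of members in these runs do not describe the family. With only the compared groups, 1 member was lower at 24 h in M2-like against M0 (Cxcl16), 3 were higher with the negative pool against mock and 2 with the Pparg pool, while Cxcl10 and Pf4 gained a call in M1-like mock against M2-like mock and Cxcl2 with the Myc pool, and Cxcl2 lost its call in untransfected M1-like against M2-like (edgeR adjusted p = 0.0748). With the replicate block, 2 were higher with the negative pool against mock and 1 (Cxcl16) with the Pparg pool, Cxcl10 was added in M1-like mock against M2-like mock and Cxcl2 with the Myc pool, and no other call changed. Of 36 samples in the reprogramming experiment, 34 correlated best with their own number, a hint from the data, not the design. DESeq2 called 1 member with the Pparg pool, and Cxcl2 lost its call with mock in M0 (DESeq2 adjusted p = 0.0572). With either technical run alone, 1 member was lower at 24 h in M2-like against M0, and 0 were lower in M1-like against M2-like, since Ppbp failed the filter. Leaving out 1 replicate gave 1 to 3 lower members at 24 h in M2-like against M0, 1 to 3 lower in M1-like mock against M2-like mock, 2 to 3 higher with mock in M0 and 1 to 2 higher with the Myc pool. Depth limits Cxcl3, Cxcl9 outside M1-like macrophages, Cxcl11 and Ppbp, which rest on few reads.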
